A study of Mus musculus with 6 samples.

Results

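The C2H2 zinc finger and BTB factors are the genes whose symbol starts with Zfp, Zbtb, Zscan or Zkscan followed by a number. Of the 4994 genes in the authors' deposited table, 86 carried such a symbol. Zfp395 and the 2 antisense or opposite-strand transcripts Zbtb8os and Zfp652os were left out, which left 83 members: 75 Zfp, 3 Zbtb, 3 Zscan and 2 Zkscan genes. The rule used names only and no measured value, but the table itself holds only genes that the authors had selected on these same samples.

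RNA-seq was carried out on mouse inner ear organoids, 3-dimensional cultures that the labels describe as wild-type epithelial cells. The 3 PD samples were cultured for 10 days with PD0325901 at 1 µM, which blocks the kinases MEK1 and MEK2 and so the passage of growth factor signals to ERK. The 3 DMSO samples received the solvent in place of the inhibitor. All 6 were kept in low-attachment plates with the GSK3 inhibitor CHIR99021 (3 µM) and the growth factors IGF (50 ng/mL), bFGF (10 ng/mL) and EGF (20 ng/mL), which the DMSO samples therefore shared. Separate cultures are not mentioned in the labels, and the p-values therefore reflect the spread of these 6 samples alone, which could be technical.

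C2H2 zinc finger proteins bind DNA through tandem fingers, each folded around a zinc ion held by a pair of cysteines and a pair of histidines, and they form the largest group of transcription factors in mammals. Many also carry an effector domain near the amino end. A KRAB box recruits the corepressor Trim28 and, through it, the histone methyltransferase Setdb1, a BTB domain pairs proteins and binds corepressors, and a SCAN domain pairs proteins with one another. KRAB zinc finger genes are known for silencing transposable elements, and many sit in clusters in which neighbours arose by duplication.

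Each value below is the deposited normalized signal of a gene in one library. Its scale is not stated in the sources used here, so changes are read between libraries for the same gene, a difference in value between genes is not read as one in abundance, and the sequencing depth is unknown. Differences are PD over DMSO after taking log2(value + 1), a transformation that shrinks the change of low genes, and a gene was called higher or lower when its Benjamini-Hochberg adjusted p from limma, over all 4994 genes, was under 0.05. The authors' deposited table lists only genes with a change of 1.5-fold or more, up or down, and with an adjusted p no higher than 0.0499. Beside that selection, 95.5% of all listed genes were called here, so a call by itself sets no member apart.

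Members of the family moved in both directions. Of the 83 members, 41 were called higher in PD organoids (49.4%), 37 were called lower (44.6%) and 5 were not called. Among all listed genes 44.5% were called higher and 51.1% lower. The values of the PD and DMSO libraries did not overlap for 77 of the 83 members, beside 95.2% of all listed genes. The share called higher, the share called lower and the share without overlap were all within 7 percentage points of those of the whole table. By the direction of the fold in the authors' deposited table, 43 members were higher and 40 lower, beside 46.9% and 53.1% of all listed genes. The median log2 difference was 0.40 over the members and -0.42 over all listed genes; few listed genes lie near 0, so a small shift in the split of directions carries the median from one side to the other.

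The split of directions differed between the deposited values and values rescaled over the listed genes. This rescaling had no unchanged genes to rest on, since the table holds only genes selected for change. By the authors' deposited fold 53.1% of them were lower, so the rescaling can by itself move lower genes toward 0. Its library factors apply to every gene, so it moved higher genes away from 0 as well. Zbtb20 went from 0.98 to 1.38 and Zfp930 from -0.58 to -0.19. The median log2 difference of members went from 0.40 to 0.76. Which scaling is nearer the true change was not tested. With the libraries rescaled by the median of ratios over the listed genes, the median of all listed genes shifted by 0.28 on the log2 scale, and 43 members were called higher and 22 lower. The share called higher among called members was then 66.2%, against 52.6% with the values as deposited, and among all called genes it was 52.6%, against 46.5%. Zbtb25 was at 0.016 and Zfp97 at 0.11 under this rescaling, both below 0 with the values as deposited. Summed over the 83 members, the deposited values were 1385 to 1436 in PD libraries and 1313 to 1398 in DMSO libraries, ranges that overlap.

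**Figure D1:**
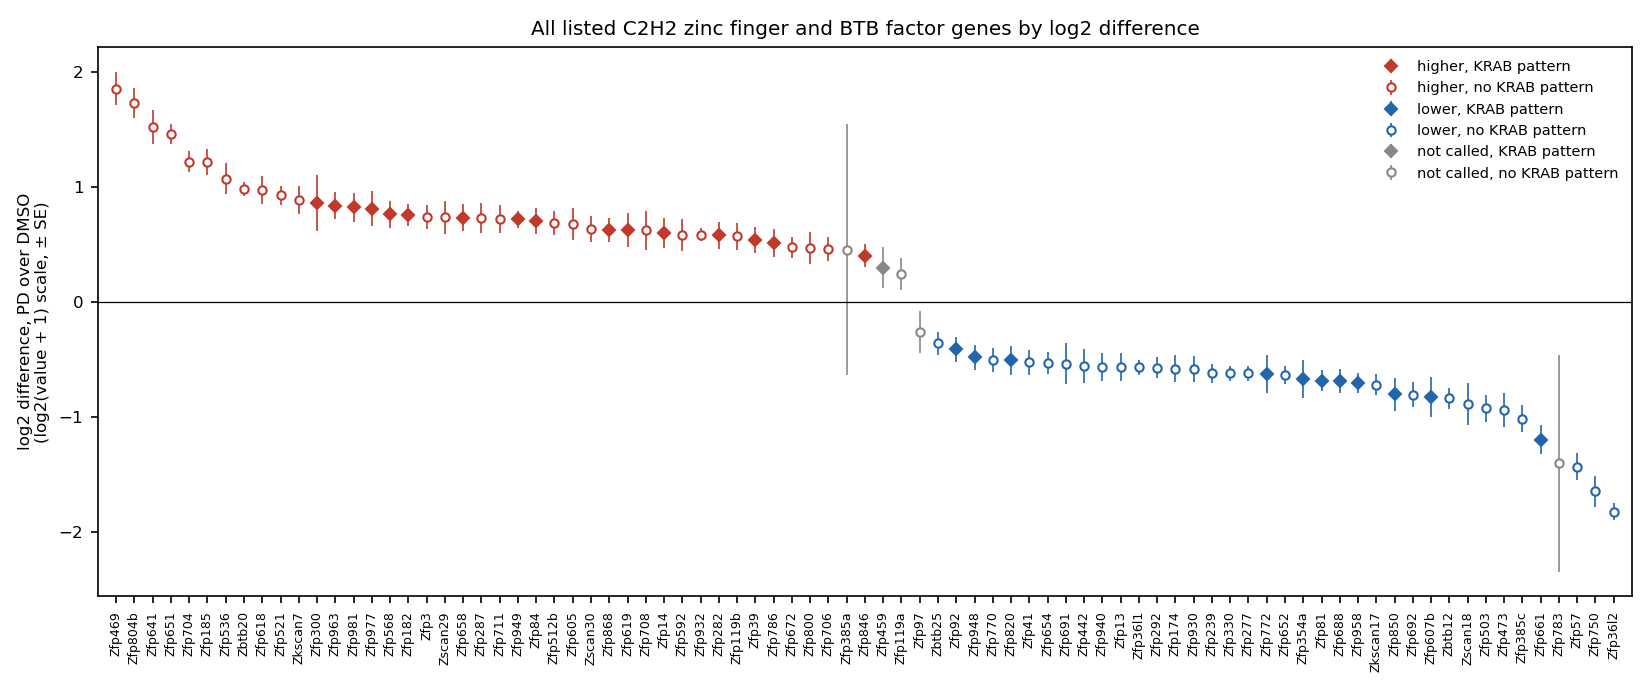
Log2 difference, PD over DMSO on the log2(value + 1) scale with its SE, for each of the 83 members in falling order; red is called higher, blue called lower and grey not called, filled diamonds carry the KRAB pattern and open circles do not (the 4 members without a coding transcript are drawn as open circles). The values run between 1.85 for Zfp469 and -1.82 for Zfp36l2, and the long bars belong to Zfp385a, with a single PD library far from its group, and to Zfp783, whose values are scattered in both groups.

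The median and upper sizes of change were smaller over the members than over the table as a whole, which is a description and was not tested. The median size of the log2 difference was 0.68 over the members and 0.85 over all listed genes. A difference of more than 1 on the log2 scale was found in 13 members (15.7%) and in 38.9% of all listed genes. None of the members passed 2, which 7.87% of all listed genes did. Among genes called higher, the median log2 difference was 0.73 for members and 0.84 for all listed genes, and among genes called lower it was -0.63 and -0.91.

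The authors' deposited folds gave the same order. In the table the authors deposited, 22 members (26.5%) had a log2 fold of more than 1 in size, against 63.0% of all listed genes. A size of more than 2 was listed for 7 members in the authors' deposited table (8.43%), against 27.0% of all listed genes. The largest of these in the authors' deposited table belonged to 3 genes with values near 0 in one group, Zfp981 at 4.44, Zfp385c at -3.81 and Zfp92 at -3.62. Zfp981 had 0.56, 0.79 and 1.15 in PD libraries and was listed at 0, 0 and 0.09 in DMSO libraries.

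**Figure D2:**
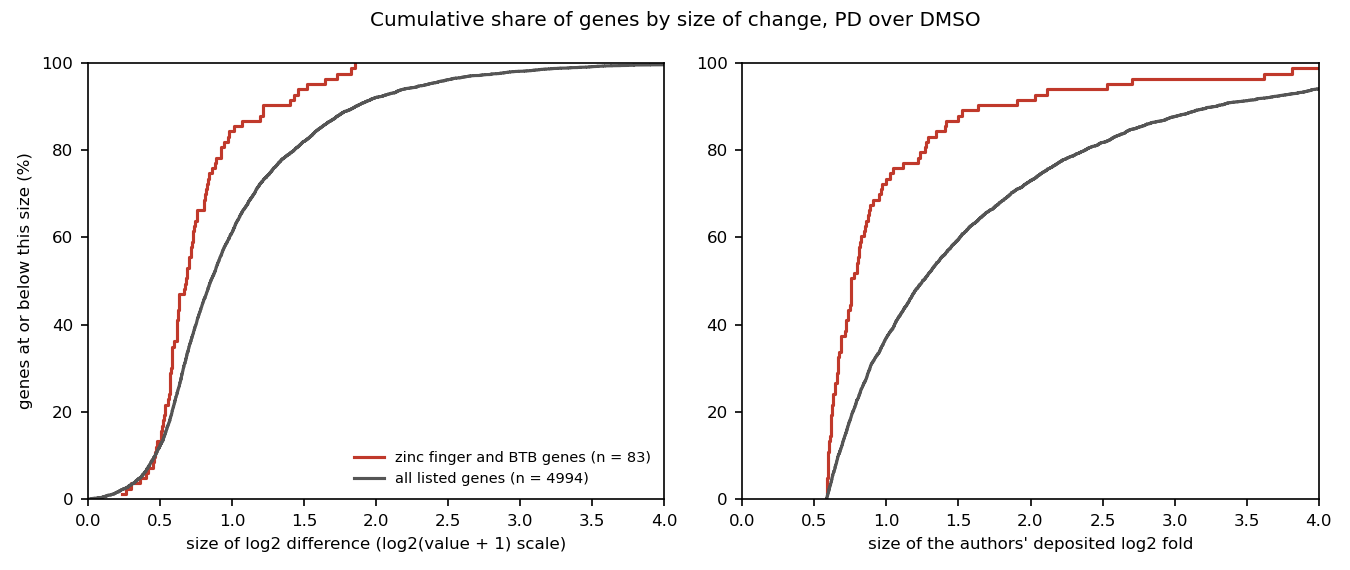
Cumulative share of genes (%) by the size of the change, PD over DMSO, on the log2(value + 1) scale (left) and by the authors' deposited log2 fold (right); red is the 83 members and grey all 4994 listed genes, and the axis ends at 4. The red curves lie above the grey ones over most of the range, with medians of 0.68 and 0.85 on the left.

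The mRNA-decay factors Zfp36l2 and Zfp36l1 share the Zfp name but not the fold, since their fingers are of the CCCH type and bind AU-rich elements in messenger RNA. Zfp36l2 (chr17:84183931-84187947, mm10) had 22.30, 25.18 and 21.81 in PD libraries, against 81.93, 85.69 and 84.70 in DMSO libraries. It had the most negative log2 difference of all 83 members, -1.82 ± 0.07 (SE), with a limma adjusted p of 1.1e-06. Its paralogue Zfp36l1 had 87.13, 89.77 and 82.62 in PD libraries and 119.89, 134.55 and 132.39 in DMSO libraries, a log2 difference of -0.57 ± 0.06. The groups did not overlap in either gene. Both overlap an exon of a gene on the opposite strand, AC132455.1 and Gm26669; the library kit keeps strand, but whether the counting used it was not stated, so reads of such pairs may not be told apart.

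The KRAB factors Zfp57 and Zfp568 moved in opposite directions. Zfp57, which keeps DNA methylation at imprinted control regions (chr17:37001163-37010635), had 16.18, 14.14 and 11.89 in PD libraries, against 39.39, 36.50 and 42.43 in DMSO libraries. Its log2 difference was -1.43 ± 0.12 (limma adjusted p = 2.3e-05), the third most negative among called members. Zfp568, which represses a placental promoter of Igf2 (chr7:29983955-30028282), had 12.94, 11.73 and 13.73 in PD libraries and 6.30, 7.98 and 7.22 in DMSO libraries. Every PD library was below every DMSO library for Zfp57 and above every one for Zfp568, whose log2 difference was 0.76 ± 0.12.

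Of the other genes with a KRAB pattern, Zfp661 showed the largest fall. It had 3.39, 4.20 and 3.24 in PD libraries and 9.76, 9.86 and 8.96 in DMSO libraries, a log2 difference of -1.20 ± 0.13 (limma adjusted p = 7.3e-05). Zfp949 had 65.64, 71.79 and 63.48 in PD libraries, against 38.40, 43.09 and 39.53 in DMSO libraries (0.72 ± 0.07). Zfp300 had the most variable rise of those named, with 1.82, 2.16 and 0.70 in PD libraries and 0.23, 0.64 and 0.26 in DMSO libraries (0.86 ± 0.24). Its lowest PD value stood just above its highest DMSO value.

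The largest rises belonged to genes in which no KRAB pattern was found, though the pattern can miss KRAB boxes. Zfp469, whose human counterpart is mutated in brittle cornea syndrome (chr8:122269569-122272650), had 14.30, 13.08 and 16.36 in PD libraries, against 2.99, 4.06 and 2.95 in DMSO libraries. Its log2 difference was 1.85 ± 0.15 (limma adjusted p = 1.8e-05); GENCODE M21 lists it without a coding transcript, whereas RefSeq lists it as protein coding. Zfp804b had 4.0, 5.50 and 4.47 in PD libraries and 0.67, 0.70 and 0.73 in DMSO libraries (1.73 ± 0.13). In both genes the lowest PD library was several times the highest DMSO library. Zfp641 had 5.0, 6.88 and 5.97 in PD libraries and 1.55, 1.48 and 1.21 in DMSO libraries (1.52 ± 0.15).

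Zfp651 rose with the smallest spread among the 4 largest rises (chr9:121759330-121771742). It had 73.64, 75.59 and 77.25 in PD libraries, against 30.37, 25.55 and 24.98 in DMSO libraries, a log2 difference of 1.46 ± 0.08 (limma adjusted p = 4.5e-06). Zfp704 had 31.92, 27.16 and 30.88 in PD libraries and 12.37, 12.95 and 11.63 in DMSO libraries (1.22 ± 0.09). Neither pair of groups overlapped. Zfp651 overlaps exons of the opposite-strand gene E530011L22Rik and Zfp704 those of C030034L19Rik.

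Of 4 members named for roles known from elsewhere, Zfp536, Zfp521 and Zfp711 were higher in PD organoids and Zfp503 was lower. Zfp536, known as a repressor of neuronal differentiation, had 8.74, 8.93 and 7.38 in PD libraries and 3.00, 3.77 and 3.59 in DMSO libraries (1.07 ± 0.13). Zfp521, a many-fingered cofactor that antagonises Ebf1, had 39.74, 38.27 and 39.72 in PD libraries and 18.32, 22.34 and 20.16 in DMSO libraries (0.92 ± 0.09). Zfp711, whose human counterpart is a gene of X-linked intellectual disability, had 10.08, 9.01 and 8.09 in PD libraries and 5.38, 4.68 and 5.20 in DMSO libraries (0.72 ± 0.12). Zfp503, a repressor also called Nolz1, went the other way, with 1.12, 1.39 and 1.45 in PD libraries and 3.62, 3.35 and 3.23 in DMSO libraries (-0.93 ± 0.12). The groups did not overlap in any of the 4, as in 95.2% of all listed genes, and the 4 stand for no class of members.

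Zfp750, whose human counterpart drives differentiation of the epidermis (chr11:121510978-121519333), was low in every PD library. It had 0.90, 1.02 and 0.63 in PD libraries, against 4.97, 5.18 and 4.20 in DMSO libraries, a log2 difference of -1.65 ± 0.14 (limma adjusted p = 2.4e-05). Zfp185, whose human counterpart encodes a LIM domain protein, had 19.81, 18.62 and 20.00 in PD libraries and 6.72, 8.15 and 8.71 in DMSO libraries (1.21 ± 0.11). The groups of the 2 genes did not overlap, and their directions were opposite. Zfp473, known in human for histone pre-mRNA processing, had 0.66, 0.90 and 0.61 in PD libraries and 1.77, 2.73 and 2.48 in DMSO libraries (-0.94 ± 0.15).

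**Figure D3:**
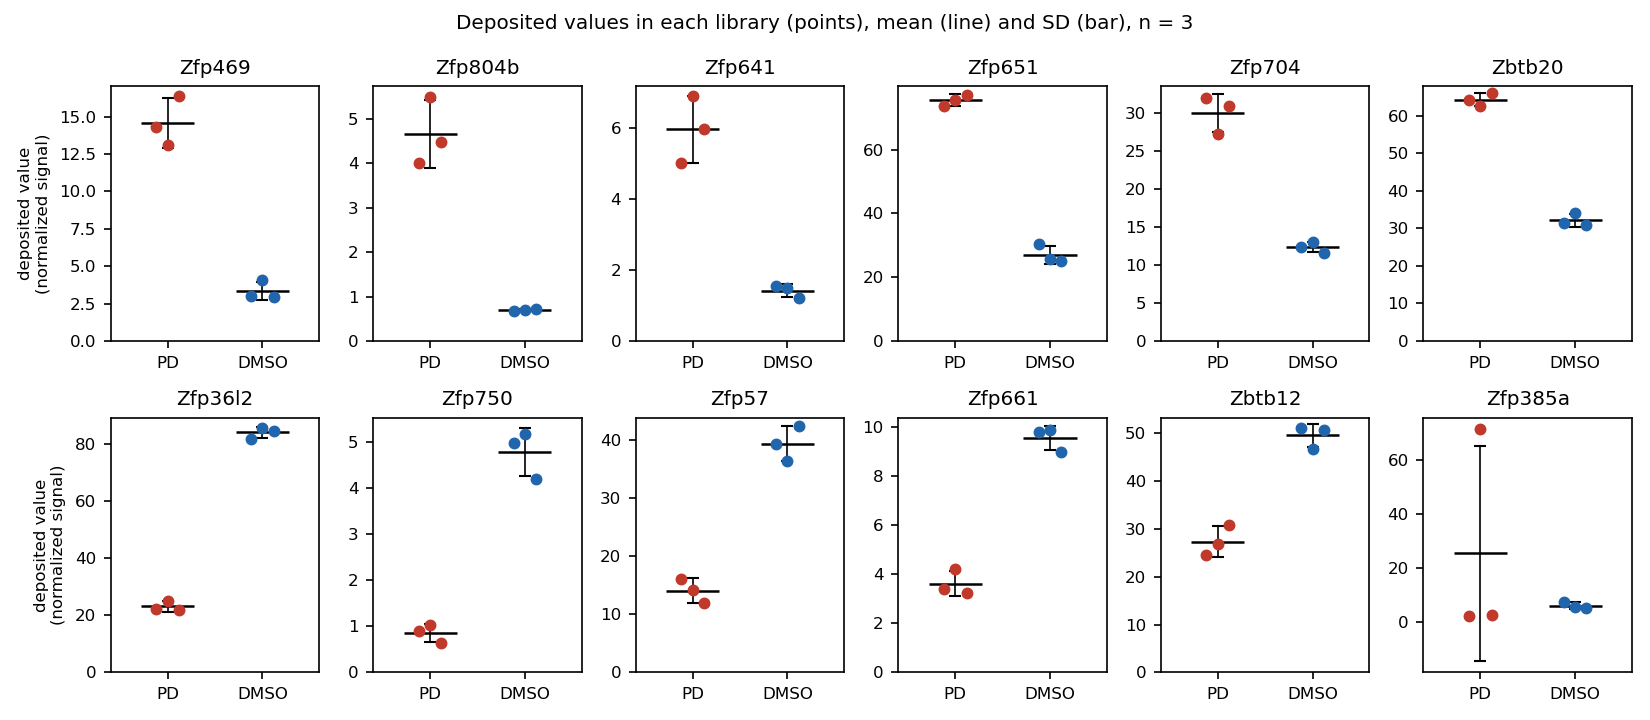
Deposited values (normalized signal, scale not stated) of 12 members in each library, PD left (red) and DMSO right (blue), with the mean as a line and the SD as a bar, n = 3 a group; each panel has its own axis. In 11 of the 12 panels the 3 PD points lie wholly above or wholly below the 3 DMSO points. Those 11 genes came from the largest rises and falls, for which groups that do not overlap were a condition. In the panel of Zfp385a the mean of the PD points rests on a single library at 71.55.

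The BTB branch was small in the table, with 1 of 3 Zbtb genes higher and 2 lower, beside 44.5% and 51.1% of all listed genes. Zbtb20, a BTB repressor (chr16:42875881-43642602), had 64.16, 62.49 and 66.07 in PD libraries, against 31.45, 33.95 and 30.83 in DMSO libraries (0.98 ± 0.06, limma adjusted p = 7.6e-06). Zbtb12 had 24.45, 26.83 and 30.74 in PD libraries and 51.12, 46.80 and 50.67 in DMSO libraries (-0.84 ± 0.09). Zbtb12 overlaps exons of C2 on the opposite strand. Zbtb25 had 8.37, 9.22 and 8.31 in PD libraries and 10.66, 11.25 and 12.13 in DMSO libraries (-0.36 ± 0.10), the smallest difference of any called member, and it lost its call under both rescalings of the libraries.

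BTB zinc finger genes of other names split evenly, with 4 of the 7 on the list in the table, 2 higher and 2 lower. The shares over all listed genes were 44.5% higher and 51.1% lower. Bcl6, the repressor of germinal centre B cells, averaged 6.56 ± 0.19 in PD libraries and 3.58 ± 0.41 in DMSO libraries (SD, n = 3 each). Hic1 averaged 2.52 ± 0.36 in PD libraries and 0.917 ± 0.17 in DMSO libraries. Gzf1 was lower, at 15.8 ± 0.93 in PD libraries and 26.0 ± 3.2 in DMSO libraries, and Bcl6b was listed at 0 in 2 of 3 PD libraries. Of 23 listed corepressor partners of BTB proteins, 2 were in the table and both were lower, as were 51.1% of all genes in the table. Rcor2 averaged 8.15 ± 1.8 in PD libraries and 32.2 ± 1.9 in DMSO libraries. Tbl1xr1 averaged 13.1 ± 0.12 in PD libraries and 20.9 ± 2.1 in DMSO libraries.

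Members named Zscan or Zkscan were split as well; they were grouped by symbol, and no SCAN domain was searched for. Zscan29 had 23.17, 20.80 and 20.65 in PD libraries and 10.09, 15.24 and 12.72 in DMSO libraries (0.74 ± 0.14). Zscan30 had 9.84, 10.20 and 9.61 in PD libraries and 5.96, 6.79 and 5.36 in DMSO libraries (0.63 ± 0.11). Zscan18 went the other way, with 3.23, 3.33 and 2.93 in PD libraries and 4.91, 7.96 and 7.60 in DMSO libraries (-0.89 ± 0.18). Zkscan7 was higher (15.81, 12.36 and 13.38 in PD libraries, 6.60, 7.73 and 6.74 in DMSO libraries) and Zkscan17 was lower (12.28, 11.22 and 12.67 in PD libraries, 19.24, 21.32 and 20.87 in DMSO libraries). In none of the 5 genes did the groups overlap, as in 95.2% of all listed genes. Zkscan7 and Zscan30 are transcribed pseudogenes in GENCODE M21.

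The 5 members with the largest deposited values in each direction were also taken up, a choice of genes to describe and not a ranking of abundance, since the scale may depend on gene length. Zfp706, Zfp651, Zfp512b, Zfp932 and Zfp949 were higher in PD organoids. Zfp706 had 117.92, 94.32 and 89.88 in PD libraries and 74.41, 74.58 and 68.38 in DMSO libraries (0.46 ± 0.10). Zfp932 had 72.47, 70.48 and 76.27 in PD libraries and 49.89, 48.31 and 47.14 in DMSO libraries (0.58 ± 0.06). Zfp932 shares stretches of up to 1765 bases and up to 97.4% identity with Gm15446. Zfp706 shares stretches of at most 265 bases, at 95% identity or more, with several genes. Reads of these stretches may therefore be split or shared between genes, and the partners of Zfp706 were not shown to be copies of it. In all, 14 members had a partner of such identity over at least 200 bases. For Zfp708 with Gm28557, Zfp963 with Gm20422 and Zfp652 with Phospho1, the partner overlaps exons of the member on the same strand and is not a separate copy. Those lower were Zfp36l1, Zfp36l2, Zbtb12, Zfp330 and Zfp652, of which the first 3 have been given. Zfp330, a nucleolar protein, had 42.84, 42.82 and 41.90 in PD libraries and 60.93, 69.05 and 67.92 in DMSO libraries. Zfp652 had 32.35, 29.30 and 34.84 in PD libraries and 50.07, 51.50 and 49.57 in DMSO libraries. Zfp652 overlaps exons of Phospho1 on the same strand, with stretches of up to 1591 bases and up to 100% identity. It also overlaps exons of Abi3 and Zfp652os on the opposite strand. Exons also overlapped on the same strand for Zfp512b with Uckl1, Zfp783 with Zfp956 and Zbtb20 with Mir568. In all, 21 members overlap an exon of an opposite-strand gene by at least 50 bases. Of these, 11 were higher, 9 lower and 1 not called, beside 44.5% higher and 51.1% lower among all listed genes.

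The remaining named members also had groups that did not overlap, a condition for being named among the largest rises and falls. Zfp618 had 12.69, 11.46 and 12.76 in PD libraries and 5.08, 6.67 and 5.70 in DMSO libraries (0.97 ± 0.12). Zfp692 had 9.78, 12.08 and 9.82 in PD libraries and 19.07, 20.40 and 18.06 in DMSO libraries (-0.81 ± 0.11). Zfp385c, a relative of the RNA-binding Zfp385a, was listed at 0, 0 and 0.22 in PD libraries and at 1.38, 1.13 and 0.98 in DMSO libraries. Zfp607b had 2.20, 2.75 and 2.24 in PD libraries and 3.78, 5.63 and 5.83 in DMSO libraries. With Zfp60 it shares stretches of up to 834 bases and up to 97.5% identity. Zfp850 had 3.01, 2.34 and 3.00 in PD libraries and 4.81, 6.26 and 5.75 in DMSO libraries (-0.80 ± 0.14). Over all members called higher the log2 difference was at least 0.40 (Zfp846).

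Of the 5 members that were not called, Zfp119a, Zfp459 and Zfp97 had small differences, Zfp385a had a single library far from the rest, and Zfp783 was scattered in both groups. Zfp119a averaged 6.41 ± 0.2 in PD libraries and 5.32 ± 0.94 in DMSO libraries, Zfp459 averaged 3.63 ± 0.47 in PD libraries and 2.8 ± 0.77 in DMSO libraries, and Zfp97 averaged 8.27 ± 2.0 in PD libraries and 10.0 ± 1.4 in DMSO libraries (SD, n = 3 each). Under median-of-ratios rescaling and quantile normalization Zfp119a (0.59 and 0.40) and Zfp459 (0.61 and 0.42) were called higher. Leaving out DMSO replicate 2 gave a call for Zfp119a (0.35), DMSO replicate 3 for Zfp459 (0.46), and PD replicate 3 for Zfp97 (-0.43, lower). Zfp385a, an RNA-binding protein, had 2.26, 71.55 and 2.80 in PD libraries, against 7.52, 5.49 and 5.34 in DMSO libraries. Its second PD library was above, and its other 2 PD libraries below, every DMSO library. Without the second PD library the log2 difference of Zfp385a was -1.002 (limma adjusted p = 0.0026), against 0.45 with it (adjusted p = 0.69), and its authors' deposited fold was 0.51. Zfp783, a transcribed pseudogene in the annotation, had 1.66, 1.56 and 10.74 in PD libraries and 11.72, 2.12 and 35.99 in DMSO libraries (-1.40 ± 0.94). Without DMSO replicate 2 its log2 difference was -2.33, and it was called lower (limma adjusted p = 0.027).

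By protein sequence the members ranged between genes with no C2H2 finger and genes with 33. Fingers were counted in the translated coding transcripts of GENCODE M21, keeping the highest number for each gene, with a finger taken as a C, 2 to 4 residues, a C, 12 residues, an H, 3 to 5 residues and an H. A coding transcript was found for 79 members, of which 6 held no such pattern: Zfp36l1, Zfp36l2, Zfp185, Zfp330, Zfp503 and Zfp750. Of these 6, 1 was higher and 5 were lower in PD organoids. Of the 17 members with 1 to 4 fingers, 5 were higher and 10 lower; of the 21 with 5 to 9 fingers, 11 were higher and 9 lower; and of the 35 with 10 or more, 21 were higher (60.0%) and 13 lower. Under median-of-ratios rescaling 1 was higher and 5 lower with no pattern, and 6 higher and 7 lower with 1 to 4 fingers. The counts were then 12 higher and 5 lower with 5 to 9 fingers, and 21 higher and 5 lower with 10 or more. Of all 4994 listed genes 44.5% were called higher and 51.1% lower with the values as deposited. Under this rescaling 2266 of them were called higher and 2039 lower. The rescaling rests on these listed genes alone, all selected for change.

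The median was 11 fingers in the 38 coding members called higher and 7 in the 37 called lower. Zfp619, with 33 fingers, averaged 3.01 ± 0.19 in PD libraries and 1.63 ± 0.45 in DMSO libraries, and Zfp521 had 27 fingers. The KRAB pattern was sought in the first 250 residues of each protein. It was found in 28 members, of which 16 were higher and 11 lower. Of the 51 coding members without it 22 were higher and 26 lower. The pattern can miss KRAB boxes, so these 51 are not a class known to lack one. A wider KRAB pattern, which also takes in Zfp57, Zfp930 and Zfp932 among others, was carried by 35 members, of which 18 were higher and 14 lower. Of the 44 coding members without the wider pattern 20 were higher and 23 lower. Among all listed genes 44.5% were called higher and 51.1% lower. Under median-of-ratios rescaling 17 members with the narrower pattern were higher and 7 lower, and 23 coding members without it were higher and 15 lower. The difference between these classes was not tested, and members of one duplicated family are not independent of one another.

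**Figure D4:**
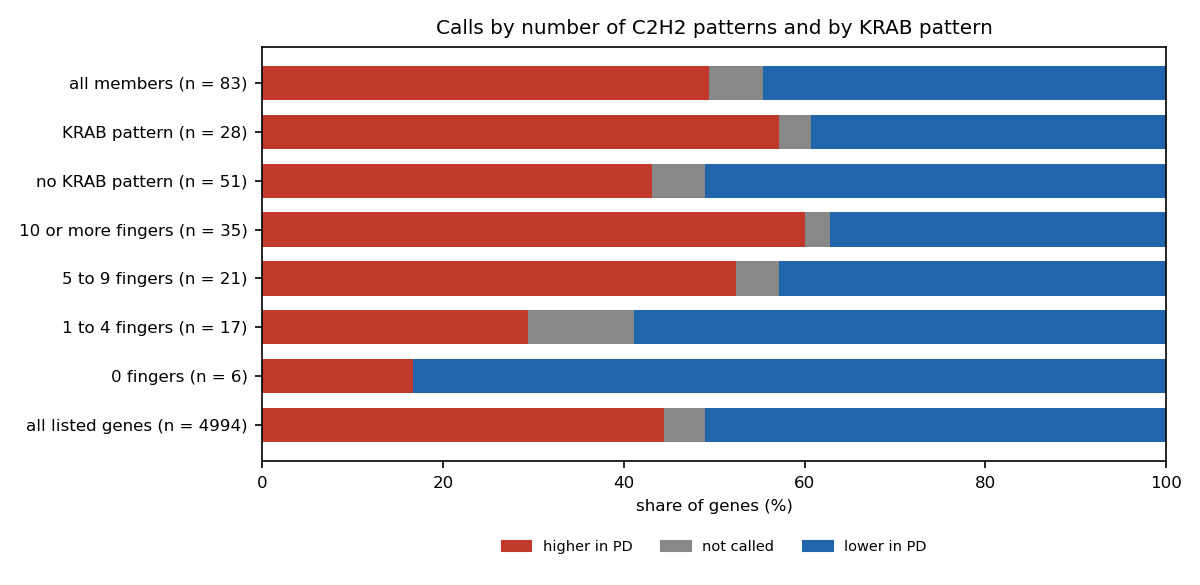
Share of genes (%) called higher (red, left), not called (grey) and called lower (blue, right) in PD over DMSO, for all members, for coding members by KRAB pattern and by number of C2H2 patterns, and for all listed genes, with the number of genes in each row. The red share is 60.0% in the row of 10 or more fingers and 16.7% in the row of 0 fingers, which holds 6 genes.

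Of the runs of neighbouring members, 3 held genes called in both directions. Runs of 3 or more members with starts within 1 Mb of the next were found in 4 places. In the run at chr11:58307069-59526751, Zfp692 (-0.81) and Zkscan17 (-0.72) were lower and the 2 genes between them, Zfp672 (0.47) and Zfp39 (0.54), were higher. In the run at chr7:29768552-30051380, Zfp84 (0.70), Zfp568 (0.76) and Zfp14 (0.60) were higher and Zfp940 (-0.56), which lies among them, was lower. In the run at chr8:69209038-69749970, Zfp930 (-0.58) was lower and Zfp868 (0.62) and Zfp963 (0.83) were higher. Under median-of-ratios rescaling Zfp940 was at -0.21 (limma adjusted p = 0.13) and Zfp930 at -0.19 (adjusted p = 0.14) and neither was called, so only the run on chromosome 11 then held calls in both directions. That rescaling rests on genes selected for change, so the lost calls do not show that Zfp940 and Zfp930 were unchanged. The run at chr6:47819266-47955913 held Zfp786 (0.51), Zfp282 (0.58) and the uncalled Zfp783.

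By chromosome, 10 members lay on chromosome 17, of which 1 was higher, 7 were lower and 2 were not called. Where a chromosome held more than 1 member, every member was called higher on chromosomes 9 (4 members), 5 (3) and 18 (2). Every member was called lower on chromosome 12 (3). On chromosome X 4 of 5 were higher. Among all listed genes 44.5% were called higher and 51.1% lower. Chromosome 7 held 15 members, the most of any chromosome, with 8 higher and 7 lower. Under median-of-ratios rescaling chromosome 17 had 2 higher and 4 lower, chromosome 12 had 2 lower, without Zbtb25, chromosome 7 had 8 higher and 5 lower, and chromosome 9 still had 4 higher. These counts are small and were not tested.

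The promoters of members called higher and lower were searched for the DNA letters of factors that lie downstream of MEK and ERK. RefSeq promoter windows (GRCm38.p6, 250 bases before and 50 after a start) were matched for 68 members, with 91 windows in all. The ETS letters CCGGAAGT stood on either strand in 7 of the 91 windows (7.69%), which belong to 6 members, and in 3.89% of all 32851 windows. Zscan29, Zfp605, Zfp672 and Zfp3, which were higher, and Zfp330 and Zfp473, which were lower, carried them. The stretches that hold the letters are shown because these 6 genes are the ones with a match; the letters are in capitals and appear as ACTTCCGG where the match is on the other strand. The stretches run 5′ to 3′ along the gene.
Zscan29 (chr2:121171126-121171297, minus strand): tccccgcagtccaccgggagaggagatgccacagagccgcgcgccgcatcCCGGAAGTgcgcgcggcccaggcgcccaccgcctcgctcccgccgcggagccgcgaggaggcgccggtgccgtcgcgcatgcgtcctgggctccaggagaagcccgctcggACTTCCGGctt
Zfp605 (chr5:110109965-110110072, plus strand): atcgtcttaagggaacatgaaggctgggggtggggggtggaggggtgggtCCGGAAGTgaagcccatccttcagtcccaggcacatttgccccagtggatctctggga
Zfp672 (chr11:58330338-58330395, minus strand): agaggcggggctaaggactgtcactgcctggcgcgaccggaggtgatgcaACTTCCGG
Zfp3 (chr11:70764385-70764446, plus strand): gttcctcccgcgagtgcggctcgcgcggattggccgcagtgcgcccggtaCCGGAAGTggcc
Zfp330 (chr8:82774184-82774291, minus strand): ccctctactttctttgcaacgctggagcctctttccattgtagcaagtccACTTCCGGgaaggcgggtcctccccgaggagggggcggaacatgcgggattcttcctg
Zfp473 (chr7:44748618-44748680, minus strand): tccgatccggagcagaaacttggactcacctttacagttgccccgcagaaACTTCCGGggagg

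The match began 6 bases before the start in Zfp672, 12 in Zfp3, 13 before one start of Zfp473 and 239 before another, 77 in Zfp605 and 96 in Zfp330, and Zscan29 held 2, which began 122 and 11 bases before its start. Of these genes Zfp605 had 16.42, 16.80 and 14.77 in PD libraries and 7.94, 11.61 and 9.69 in DMSO libraries (0.67 ± 0.14). Zfp3 had 8.91, 9.55 and 9.35 in PD libraries and 5.11, 5.44 and 4.91 in DMSO libraries (0.74 ± 0.10). Zfp672 had 20.83, 21.20 and 19.12 in PD libraries, against 13.46, 13.96 and 15.79 in DMSO libraries. The same letters thus stood before genes that were higher and genes that were lower.

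Other letters were searched on both strands in the same windows. The AP-1 letters TGACTCA stood in 4 of the 91 windows (4.40%) and in 5.20% of all windows. For the CRE letters TGACGTCA it was 5 (5.49%) and 1.79%, and for the E-box letters CACGTG 11 (12.1%) and 7.15%. These windows belonged to 4 of 68 members for AP-1, only 3 for CRE and 8 for the E-box. The hypoxia response core, ACGTG or GCGTG, which the E-box letters contain, stood in 48 (52.7%) and in 43.8% of all windows; it was in 16 of 32 members called higher and 21 of 31 called lower. Windows of one gene overlap and were counted separately, and a match is a description of letters, not of a bound site.

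On a list of 41 KRAB corepressor and heterochromatin genes, 8 were in the table, of which 3 were higher, 4 lower and 1 not called. The shares over all listed genes were 44.5% higher and 51.1% lower. Dnmt1, which maintains DNA methylation, averaged 29.2 ± 1.8 in PD libraries and 59.4 ± 2.2 in DMSO libraries. Uhrf1, its recruiter to replicated DNA, averaged 18.7 ± 5.1 in PD libraries and 70.1 ± 6.1 in DMSO libraries, and both were lower, with limma adjusted p of 9.9e-06 and 4.8e-05. Dnmt3a, a de novo DNA methyltransferase, was higher, at 49.7 ± 1.3 in PD libraries and 29.6 ± 2.5 in DMSO libraries, and so was Morc2a, at 54.9 ± 4.1 in PD libraries and 33.3 ± 1.6 in DMSO libraries. Of the other 4 in the table, Resf1 was higher (0.75 ± 0.11), Cbx5 (-0.66 ± 0.10) and Suv39h1 (-0.63 ± 0.11) were lower, and Suv39h2 was not called (-0.37 ± 0.38). The 33 genes of the list outside the table were not analysed here.

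C2H2 factors of other names gave 20 of 70 in the table, of which 14 were higher and 6 lower, with a median log2 difference of 1.12. Prdm16, a zinc finger methyltransferase family member, averaged 75.1 ± 4.6 in PD libraries and 11.6 ± 1.7 in DMSO libraries (2.60 ± 0.11). Zic2, a regulator of neural development, averaged 15.9 ± 2.2 in PD libraries and 3.58 ± 0.73 in DMSO libraries (1.89 ± 0.16). Zhx2 averaged 25.9 ± 1.2 in PD libraries and 11.1 ± 0.68 in DMSO libraries, and Zhx3 averaged 21.6 ± 0.87 in PD libraries and 9.39 ± 0.94 in DMSO libraries. These differences passed 1 on the log2 scale in 14 of the 20 genes, against 13 of the 83 members and 38.9% of all listed genes. Among all listed genes 44.5% were called higher and 51.1% lower. The list was chosen with earlier results of these data known, and the contrast with the members was not tested.

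Markers of cell types differed between the groups, with epithelial markers moving in both directions. For the counts below, the shares over all listed genes were 44.5% called higher and 51.1% called lower. Summed over the 7 of 9 epithelial markers in the table, of which 2 were higher and 5 lower, the deposited values were 1062 to 1118 in PD libraries and 1931 to 2034 in DMSO libraries; Pax2 and Pax8 were not in the table. The 6 of 7 mesenchyme markers in the table, 4 higher and 2 not called, summed to 3916 to 4434 in PD libraries and 1725 to 1894 in DMSO libraries. These sums came almost wholly from Lum, Dcn and Vim. Pdgfra, also higher, averaged 1.07 ± 0.08 in PD libraries and 0.47 ± 0.03 in DMSO libraries (SD). The uncalled Col1a1 averaged 0.67 ± 0.62 in PD libraries and 0.90 ± 0.25 in DMSO libraries. The uncalled Col1a2 averaged 0.13 ± 0.05 in PD libraries and 0.02 ± 0.02 in DMSO libraries. The 4 of 5 neuron markers in the table, all higher, summed to 6.92 to 7.65 in PD libraries and 0.67 to 0.85 in DMSO libraries. These 4 had values near 0 in DMSO libraries, with means of 0.12 (Tubb3) to 0.24 (Syt1). In PD libraries their means ran between 0.57 (Tubb3) and 2.42 (Gap43). Epcam, an epithelial marker, was present in all libraries, at 496.10 to 524.15 in PD libraries and 803.10 to 866.15 in DMSO libraries. Krt18, Krt8, Cldn6 and Sox2 were lower in PD like Epcam, whereas Cdh1, at 114.1 ± 9.3 in PD libraries and 53.6 ± 1.5 in DMSO libraries, and the otic gene Oc90, at 190.9 ± 35 in PD libraries and 117.1 ± 4.7 in DMSO libraries, were higher. In bulk samples fewer cells of a type and less RNA per cell cannot be told apart, and the part of these markers in the differences of the zinc finger genes was not tested.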

How the data were processed

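The deposited table gives normalized signal values per gene and library, rounded by the authors to 2 decimals, with no scale stated per the file headers. It also holds the authors' fold (a ratio), its log2, p-value and adjusted p-value. Of the software, the submitters' processing notes list DESeq2, HISAT2, HTSeq and Trimmomatic, and of genome builds mm10, without roles or versions. All 6 libraries were matched by column name, and 0 value columns were left without a sample. The members and gene lists were chosen with earlier results of these data known.

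Differences came from limma 3.58.1 (R 4.3.3) with a trend, on log2(value + 1) without a filter, over all 4994 rows; the fit was tested on simulated data. Finger and KRAB patterns were read from translated GENCODE M21 transcripts (the same assembly as mm10), in place of the RefSeq proteins first planned, which were not used here. Shared sequence was found with blastn 2.17.0 (at least 200 bases, 95% identity). For each pair of genes the highest identity and the longest stretch were taken separately.

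Genes were named by rule: the 12 largest rises and falls, the 5 largest values each way, and every Zbtb, Zscan and Zkscan gene. Known roles, uncalled members and up to 4 genes per list were named too. For the 12 largest rises and falls a member had to be called, with a group mean of 1 or more and groups that do not overlap. Members of runs, with extreme finger numbers, with promoter matches or with values near 0 were added after their values were seen. Alternatives were pseudocounts of 0.1 and 5, a filter (at least 1 in at least 3 libraries), 2 rescalings, leaving out each library, a replicate block and no trend. Class counts under the rescalings were added after seeing the data.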

Additional observations from a re-analysis of the deposited data

How the results depend on the processing

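The count of members called higher stayed within 1.5 times its value under every alternative run. The count called lower did so too, except under median-of-ratios rescaling, where it was 22. That rescaling used only genes selected for change, with no unchanged genes to rest on. The median log2 difference of members was 0.76 under that rescaling, 0.56 with quantile normalization, 0.20 with a pseudocount of 5, 0.46 without members holding no C2H2 pattern, and 0.33 to 0.43 with 1 library left out. The share called higher was 51.8% under both rescalings and by the authors' deposited direction, 51.9% without members holding no C2H2 pattern, 49.4% to 50.6% with 1 library left out and 50.6% without Zfp385a and Zfp783, an alternative chosen after seeing the data. Among named members, Zbtb25 was at 0.016 and Zfp97 at 0.11 under median-of-ratios rescaling, and Zfp385a ranged between -1.002 without PD replicate 2 and 1.24 without PD replicate 1. Zfp691 (-0.54, limma adjusted p = 0.020) lost its call in 4 of 6 settings with a library left out. The cause of these changes was not tested.

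Same-numbered PD and DMSO libraries did not deviate together (correlations -0.04, -0.0009 and -0.006 over 4235 genes), so the numbers were not taken as pairs. With a replicate block 41 members were called higher and 38 lower, the added call being Zfp783 (adjusted p = 0.0099). Depth is unknown, so how far it limits low values cannot be said.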
